A study of Mus musculus with 16 samples.

Results

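Lysozymes, chitinases and small secreted antimicrobial proteins were examined as 6 genes: Lyz1 and Lyz2, which encode lysozymes, Chia1, an acidic chitinase, Chil1, a chitinase-like protein, Lcn2, a siderophore-binding lipocalin, and Slpi, a secreted inhibitor of serine proteases. They were chosen by name as genes of 1 kind of product, with earlier results of these data known. The symbols were matched to the gene identifiers of the count table. All 6 of 6 were found among its 27179 genes, and all 6 passed the filter on low counts that left 15516 genes to test.

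Alveolar type 2 cells, the epithelial cells that make surfactant, also secrete proteins that act on microbes. Lysozymes cut the peptidoglycan of bacterial walls, chitinases cut the chitin of fungi and arthropods, and chitinase-like proteins bind such sugars without cutting them. Lcn2 withholds iron by binding bacterial siderophores, and Slpi protects tissue from neutrophil proteases and can also harm bacteria directly.

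The libraries were made from mouse lung cells of a fibrosis model, in which control lungs were set against lungs with a mutation of Sftpc, the gene for surfactant protein C. Live cells that carried Epcam and much CD200, but no CD45, CD31 or CD104, were sorted, and each lung was then divided into a CD44- and a CD44+ fraction. There were 8 animals and 16 libraries in 4 groups of 4. The table's columns carry 2 prefixes, and the groups are named by prefix and sort, as OG CD44+ or R26 CD44-, with the animal's number from the column (8, 7, 2 and 1 for R26, and 7, 6, 5 and 3 for OG). The labels give the genotypes SP-C WT and SP-C Mutant and, on all 16 samples, the treatment OG TMX. They give no age, strain, driver of the allele or time after treatment, and they do not state which prefix is which genotype. Taking R26 for SP-C WT and OG for SP-C Mutant is an inference, so differences between prefixes are given as OG against R26. Differences between CD44+ and CD44- cells within a prefix do not depend on it. The p-values measure the spread between these animals only.

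Library totals ran from 9022471 to 21363816 counts. The AT2 label was checked against 16 markers: all 16 were detected in every group, and their summed level was 162002 to 186285 CPM (counts scaled to library size) in R26 CD44-, 106989 to 150721 in R26 CD44+, 50886 to 53860 in OG CD44- and 24685 to 29316 in OG CD44+. The list is thus present in all 4 groups but at unequal levels. Sftpc, the gene mutated in the model, made up a large part of these sums. Its means were 79592, 54364, 11684 and 6696 CPM in the same order of groups. Over the 16 markers, the median log2 fold change of OG CD44- against R26 CD44- was -0.94. In sorted bulk RNA, fewer cells of a type and less RNA per cell cannot be told apart, and this holds for every difference below. Cd44 RNA rose from CD44- to CD44+ cells in both prefixes, from 329 ± 4.45 to 469 ± 77.4 CPM (SD, n = 4) in R26 and from 562 ± 24.1 to 914 ± 22.6 CPM in OG. Cd200, selected for, fell from 178 ± 9.39 to 134 ± 9.37 CPM in R26 and from 123 ± 3.66 to 78.2 ± 2.38 in OG. Of the genes selected against, Itgb4 (CD104) rose from 6.78 ± 0.378 to 13.8 ± 4.10 CPM in R26 and from 24.9 ± 1.80 to 94.7 ± 5.64 in OG. Ptprc (CD45) rose from 0.163 ± 0.0279 to 7.94 ± 5.06 CPM in R26 and from 1.21 ± 0.329 to 5.14 ± 2.33 in OG. Pecam1 (CD31) rose from 3.88 ± 1.08 to 18.03 ± 1.86 CPM in R26, and in OG it was at 4.65 ± 0.598 and 3.55 ± 2.92 CPM. Their part in the results below was not tested. The library of R26 animal 2 CD44+ stood apart from the other 3 of its group in Lyz2, and the lysozyme results that use it are given with and without it.

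In OG animals, 5 of the 6 genes fell from CD44- to CD44+ cells and 0 rose. Lyz1 and Lyz2 fell the most, 5.50-fold and 4.99-fold, followed by Chia1, Chil1 and Lcn2, while Slpi was not called. Of all genes tested, 50.4% were called in this comparison and 28% were called lower, by edgeR's quasi-likelihood F test at a Benjamini-Hochberg adjusted p under 0.05. The median log2 fold change was -1.65 over the 6 genes and -0.06 over all genes. In R26 animals the same sort gave smaller differences: 4 of 6 fell, 0 rose, and the median was -0.34 beside -0.02 over all genes. There 37.1% of all genes were called, 15.4% lower. The share of higher genes among those called was 58.4%, and 48% with DESeq2 size factors. It was 42.4% to 45.2% when any single R26 library was left out.

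Between prefixes, in CD44- cells, 4 genes were lower and 1 higher in OG than in R26. The median was -1.53 beside 0.12 over all genes, and 69% of all genes were called, 29.6% lower and 39.4% higher. When any single CD44- library of R26 was left out, the all-gene median was 0.003 to 0.006. In CD44+ cells, 5 were lower and 1 higher, with a median of -2.72 beside -0.01, and 69.1% of all genes were called, 34.6% lower and 34.5% higher. Lyz1, Lyz2, Chia1 and Chil1 were lower in both. Slpi was the higher gene in both. These comparisons share libraries with one another, so their values stand side by side and not as separate support.

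**Figure D1:**
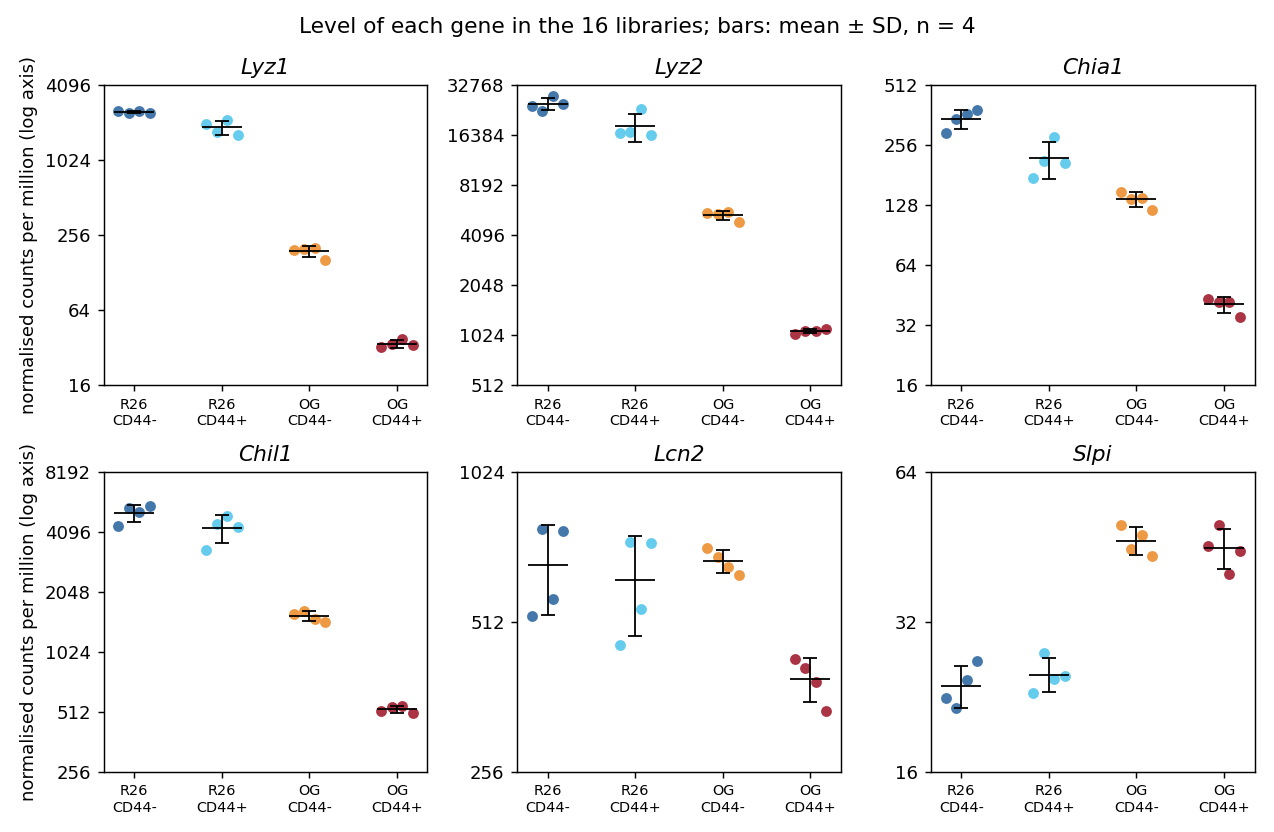
Normalised CPM, on a log axis, of the 6 genes in each of the 16 libraries. Each point is a library, each panel has its own range, and black bars are the mean and SD of the 4 libraries of a group. Lyz1, Lyz2, Chia1 and Chil1 step down from R26 CD44- on the left to OG CD44+ on the right, the 4 Lcn2 values of OG CD44+ lie below the other 12, and Slpi is higher in both OG groups.

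Lyz1 and Lyz2 are neighbours on the minus strand of chromosome 10 (GRCm38), Lyz1 at chr10:117287795-117292868 and Lyz2 at chr10:117277541-117282272, 5522 bases apart. Their coding sequences are identical at 425 of 447 bases (95.1%). The promoters are less alike. Since the paired genes moved together but by unequal amounts, their promoter windows are shown, from 250 to 51 bases before the RefSeq start (RefSeq, GRCm38.p6), at chr10:117292919-117293118 for Lyz1 and chr10:117282323-117282522 for Lyz2, both on the minus strand. Capitals mark the bases at which the aligned windows differ.
Lyz1: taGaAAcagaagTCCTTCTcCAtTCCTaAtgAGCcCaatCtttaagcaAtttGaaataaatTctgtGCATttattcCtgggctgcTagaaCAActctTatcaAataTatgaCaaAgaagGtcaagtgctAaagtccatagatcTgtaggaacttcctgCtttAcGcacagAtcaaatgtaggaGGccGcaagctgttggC
Lyz2: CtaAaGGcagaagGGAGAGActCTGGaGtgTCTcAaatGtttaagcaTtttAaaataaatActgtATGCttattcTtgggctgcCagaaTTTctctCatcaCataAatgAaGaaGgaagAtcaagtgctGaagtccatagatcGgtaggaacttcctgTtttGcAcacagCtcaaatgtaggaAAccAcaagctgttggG
The alignment held 150 identical bases in 202 columns (74.3%). Searched on both strands, CACTTG, a core bound by NKX2-1-type factors, occurred once in each window, 129 to 124 bases before the start, and GGAAGT, an ETS core, once in each, 100 to 95 bases before it. Windows of the same length held these in 9.75% and 14.6% of 32851 promoters. CCAAT (28.4% of promoters) and the C/EBP form TTGCNNAA (8.11%) matched the Lyz1 window and not that of Lyz2, and the C/EBP match includes a base at which the windows differ. Among the windows of the other genes, the C/EBP form also matched those of Lcn2 and Slpi, and CCAAT those of Chia1 and Chil1. A match is a run of letters and no measured binding, and its part in the unequal falls was not tested.

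Lyz1, the lysozyme known as the P form from Paneth cells of the gut, was at 2539, 2441, 2548 and 2420 CPM in R26 CD44- (animals 8, 7, 2 and 1). In R26 CD44+ it was at 1990.0, 1704, 2148 and 1620 CPM in the same animals. In OG CD44- it was at 195, 197, 203 and 161 CPM (animals 7, 6, 5 and 3), and in OG CD44+ at 32.1, 34.2, 37.6 and 33.4 CPM. The 4 groups did not overlap in any of the comparisons made, and CD44+ was lower than CD44- in each of the 8 animals. The log2 fold change of CD44+ against CD44- was -2.46 ± 0.09 (SE) in OG (adjusted p = 2.66e-14) and -0.41 ± 0.08 in R26 (adjusted p = 0.000225), by edgeR's quasi-likelihood F test and Benjamini-Hochberg adjustment, as are all adjusted p below unless another test is named. Groups that do not overlap were found for 51% of all genes in OG and 28.8% in R26.

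Against R26, Lyz1 in OG was 13.2-fold lower in CD44- cells (log2 -3.72 ± 0.09, adjusted p = 2.9e-19) and 54.3-fold lower in CD44+ cells (-5.76 ± 0.10, adjusted p = 2.28e-21). Of the 7467 genes with a mean log2 CPM of at least 4, Lyz1 had the lowest fold change in the CD44+ comparison of prefixes and the third lowest in the CD44- comparison. Groups without overlap made up 67.6% and 57.7% of all genes there. The difference of differences, OG minus R26, was -2.04 ± 0.12 (adjusted p = 1.94e-10), in a term that called 24.7% of all genes, 18.1% lower and 6.57% higher. The share of higher genes among those called by this term was 26.6%, and 39.1% with DESeq2 size factors. It was 51% to 53.5% when any single R26 library was left out.

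Lyz2, the lysozyme shared by AT2 cells and macrophages, was the most abundant of the 6 genes in every group. It was at 24589, 22945.5, 27962 and 25010.1 CPM in R26 CD44- and at 16731, 16964, 23629 and 16357 CPM in R26 CD44+ (animals 8, 7, 2 and 1). In OG CD44- it was at 5524, 5481, 5627 and 4915 CPM, and in OG CD44+ at 1043, 1084, 1086 and 1110.1 CPM (animals 7, 6, 5 and 3). The R26 sorts overlapped only through animal 2, whose CD44+ library lay above the CD44- library of animal 7, and the OG sorts were far apart. Within each of the 8 animals, CD44+ was below CD44-.

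The fall of Lyz2 from CD44- to CD44+ was -2.32 ± 0.10 in log2 in OG (adjusted p = 3.88e-14) and -0.45 ± 0.09 in R26 (adjusted p = 0.00046). Without the CD44+ library of R26 animal 2 the R26 values were -0.67 for Lyz2, -0.56 for Lyz1, -0.88 for Chia1 and -0.41 for Chil1, and the same 4 genes were called lower. OG was below R26 by 4.66-fold in CD44- cells (-2.22 ± 0.10, adjusted p = 1.75e-15) and by 17.1-fold in CD44+ cells (-4.09 ± 0.10, adjusted p = 1.4e-19). The difference of differences was -1.87 ± 0.13 (adjusted p = 9.42e-10). Without that library, OG against R26 in CD44+ cells was -3.93 for Lyz2 and -5.67 for Lyz1, and the difference of differences -1.60 and -1.85.

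Because the 2 transcripts are near copies, reads may have been divided between them by the counting. Of the windows of 100 bases in the Lyz1 transcript, 2.06% also stand exactly in Lyz2, and 26.5% do so with up to 2 mismatches; for windows of 50 bases the shares are 16.1% and 63%. The read length is not given in the sources used here. With the 2 counts added together, the lysozymes changed from CD44- to CD44+ by -2.32 in log2 in OG (adjusted p = 1.52e-14) and by -0.44 in R26 (adjusted p = 0.000327). For OG against R26 the sum gave -2.31 in CD44- cells (adjusted p = 2.22e-16) and -4.19 in CD44+ cells (adjusted p = 2.47e-20). Without the CD44+ library of R26 animal 2, the sum gave -0.66 between the sorts of R26 and -4.03 between prefixes in CD44+ cells. Lyz2 made up most of the sum, at 25127 of 27613.5 CPM in R26 CD44- and 1081 of 1115 in OG CD44+. The sum therefore mostly repeats Lyz2 and cannot show how far Lyz1 alone changed. Whether Lyz2 reads counted as Lyz1 make up part of the Lyz1 values was not tested.

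The balance of the lysozymes was compared as the ratio of their counts. Lyz2 counts per Lyz1 count were 9.69, 9.40, 11.0 and 10.3 in R26 CD44- and 8.41, 9.96, 11.0 and 10.1 in R26 CD44+. They were 28.3, 27.8, 27.8 and 30.5 in OG CD44- and 32.5, 31.7, 28.9 and 33.3 in OG CD44+. Every OG library thus lay above every R26 library. The mean ratio was 10.1 ± 0.703 (SD, n = 4) in R26 CD44- and 28.6 ± 1.28 in OG CD44- (exact permutation test, two-sided, p = 0.0286, 0.0572 adjusted over 4 comparisons). It was 9.87 ± 1.08 in R26 CD44+ and 31.6 ± 1.91 in OG CD44+ (exact permutation p = 0.0286, adjusted 0.0572). Between the sorts the exact permutation p was 0.0571 in OG (adjusted 0.0761) and 0.771 in R26 (adjusted 0.771). The permutations were run on log2 ratios and did not pair the 2 sorts of an animal. Within animals, the ratio rose from CD44- to CD44+ in every OG animal and in only some R26 animals. With 4 libraries against 4, 0.0286 is the smallest p this test can give, and none of the 4 comparisons had an adjusted p under 0.05.

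**Figure D2:**
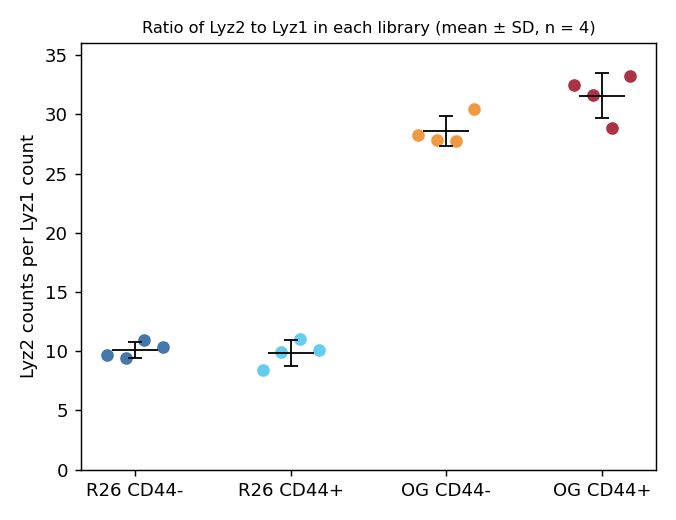
Lyz2 counts divided by Lyz1 counts in each library (vertical axis, from 0), for the 4 groups; black bars are the mean and SD. R26 libraries lie between 8.41 and 11.0 and OG libraries between 27.8 and 33.3.

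The other 8 genes of the lysozyme family that were listed did not pass the filter on low counts, so the family is represented in these cells by Lyz1 and Lyz2.

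Chil1, a chitin-binding protein without chitinase activity that is released in many states of tissue inflammation and injury, lies on the plus strand at chr1:134182156-134190031 (GRCm38). It was at 4374, 5399, 5115 and 5487 CPM in R26 CD44- and at 3318, 4496, 4924 and 4302 CPM in R26 CD44+ (animals 8, 7, 2 and 1). In OG CD44- it was at 1588, 1644, 1501 and 1444 CPM, and in OG CD44+ at 519, 540, 549 and 503 CPM (animals 7, 6, 5 and 3). The R26 sorts overlapped and the OG sorts did not, although CD44+ was lower in all 8 animals. The log2 fold change with CD44 was -1.55 ± 0.09 in OG (adjusted p = 8.03e-11) and -0.26 ± 0.09 in R26 (adjusted p = 0.0315), and the R26 call was lost when only the R26 libraries were fitted (-0.23, adjusted p = 0.145).

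Chil1 in OG was 3.30-fold below R26 in CD44- cells (-1.72 ± 0.09, adjusted p = 1.5e-12) and 8.07-fold below it in CD44+ cells (-3.01 ± 0.10, adjusted p = 4.01e-16). The difference of differences was -1.29 ± 0.13 (adjusted p = 4.72e-07). Its promoter window, chr1:134181906-134182105 on the plus strand (RefSeq, GRCm38.p6), is shown because an inflammatory inducer's motif stands in it; capitals mark a CCAAT and a match to the NF-kappaB motif.
Chil1: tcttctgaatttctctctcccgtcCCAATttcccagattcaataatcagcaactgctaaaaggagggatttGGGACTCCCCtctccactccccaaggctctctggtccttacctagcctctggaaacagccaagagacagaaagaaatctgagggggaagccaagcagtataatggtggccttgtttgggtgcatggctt
The NF-kappaB match lies 179 to 170 bases before the start, and 5.71% of promoters held one. None of the other 5 windows did.

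Chia1, the acidic chitinase, whose product cuts chitin in the airspace and stomach, lies on the plus strand at chr3:106113382-106132118. It was at 294, 344, 364 and 383 CPM in R26 CD44- and at 174, 213, 282 and 207 CPM in R26 CD44+ (animals 8, 7, 2 and 1). In OG CD44- it was at 149, 137, 139 and 121 CPM, and in OG CD44+ at 43.5, 42.0, 41.9 and 35.1 CPM (animals 7, 6, 5 and 3). No pair of groups compared overlapped. CD44+ cells were 3.36-fold lower in OG (-1.75 ± 0.14, adjusted p = 1.7e-07) and 1.58-fold lower in R26 (-0.66 ± 0.13, adjusted p = 0.000876). In R26 this was the largest fall of the 6 genes, at place 15 from the lowest among the 7467 more abundant genes. OG against R26 gave -1.34 ± 0.13 in CD44- cells (adjusted p = 3.38e-07) and -2.43 ± 0.14 in CD44+ cells (adjusted p = 1.15e-09) on the log2 scale. The difference of differences was -1.09 ± 0.19 (adjusted p = 0.000758).

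Relatives of the chitinases did not all fall. Of 10 listed genes, 8 were tested, Chia1 and Chil1 included. In OG, 1 rose and 6 fell from CD44- to CD44+, with a median of -0.60, and in R26, 1 rose and 2 fell, with a median of -0.17. Between prefixes 3 were higher and 3 lower in OG CD44- cells (median -0.07), and 3 higher and 4 lower in CD44+ cells (median -0.31). Chil3, a chitinase-like protein known from alveolar macrophages, was at 0.905 ± 0.453 CPM (SD, n = 4) in R26 CD44- and 24.7 ± 1.09 in OG CD44- (log2 4.78 ± 0.33, adjusted p = 1.4e-09). It fell in OG from CD44- to CD44+, to 9.16 ± 3.16 CPM (-1.43 ± 0.24, adjusted p = 0.000128). Chil4, its close copy, rose there from 0.122 ± 0.111 to 2.49 ± 0.510 CPM (4.43 ± 0.56, adjusted p = 7.38e-07). Reads of Chil3 and Chil4 may be divided between them, and Chil3 also stands on the macrophage list. Ctbs, the lysosomal chitobiase, was higher in OG than in R26 by 1.14 ± 0.08 in CD44- cells (adjusted p = 1.36e-11) and by 0.80 ± 0.09 in CD44+ cells (adjusted p = 1.97e-08).

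Lcn2, on the minus strand at chr2:32384637-32387739, did not follow the lysozymes. It was at 525, 786, 569 and 777 CPM in R26 CD44- and at 461, 739, 544 and 737 CPM in R26 CD44+ (animals 8, 7, 2 and 1). In OG CD44- it was at 719, 691, 660 and 637 CPM, and in OG CD44+ at 431, 414, 387 and 340 CPM (animals 7, 6, 5 and 3). R26 animals 7 and 1 were high and animals 8 and 2 low in both sorts, and the OG animals kept their order across the sorts. The OG CD44- libraries lay inside the range of R26 CD44-, and the OG CD44+ libraries lay below all others. The share of all genes with this pattern was not counted.

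From CD44- to CD44+, Lcn2 fell 1.72-fold in OG (-0.78 ± 0.17, adjusted p = 0.00166). In R26 the value was -0.10 ± 0.17 (adjusted p = 0.68). Within animals, the log2 difference ran from -0.91 to -0.74 in OG and from -0.19 to -0.06 in R26, and it was below 0 in 8 of 8 animals. The difference of differences was -0.68 ± 0.24 (adjusted p = 0.0511), short of the threshold. With the animal as a replicate block it was -0.68 ± 0.06 (adjusted p = 3.11e-13), and the R26 difference was called as well (-0.11 ± 0.04, adjusted p = 0.028). Between prefixes, Lcn2 was at 0.03 ± 0.17 in CD44- cells (adjusted p = 0.898), and OG was lower in CD44+ cells (-0.66 ± 0.17, adjusted p = 0.00342).

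**Figure D3:**
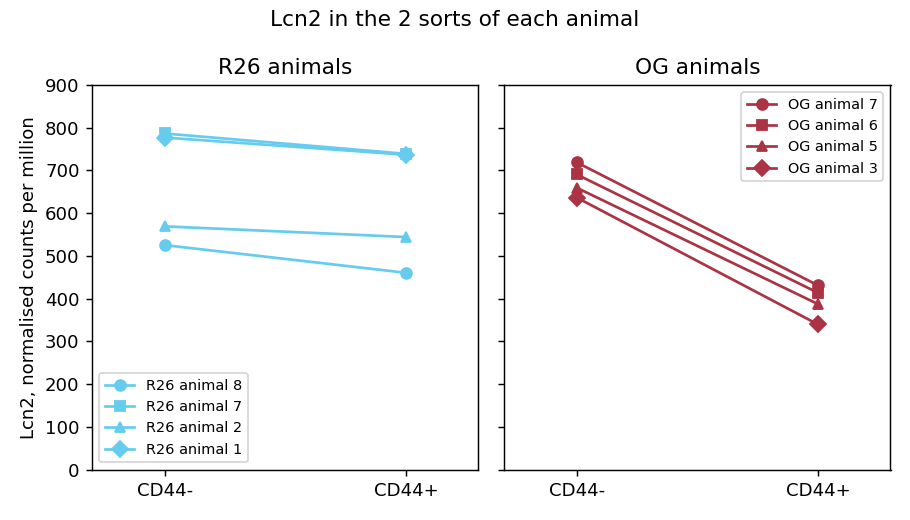
Lcn2 in normalised CPM in the CD44- and CD44+ sorts of each animal, with a line joining the 2 libraries of an animal; the left panel holds R26 and the right panel OG animals. All 8 lines go down, with log2 differences from -0.91 to -0.74 in OG and from -0.19 to -0.06 in R26, and the R26 animals form a high and a low pair.

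Slpi, on the minus strand at chr2:164354070-164356507, was the least abundant of the 6 in R26. Its 16 libraries held 207 to 1001 counts each. It was at 22.5, 21.5, 24.4 and 26.7 CPM in R26 CD44- and at 23.0, 27.7, 24.6 and 24.9 CPM in R26 CD44+ (animals 8, 7, 2 and 1). In OG CD44- it was at 50.1, 44.9, 47.7 and 43.3 CPM, and in OG CD44+ at 45.5, 49.9, 39.8 and 44.3 CPM (animals 7, 6, 5 and 3). All 8 OG libraries lay above all 8 R26 libraries, while the sorts of a prefix overlapped. The share of all genes with this separation was not counted. Between prefixes, groups without overlap made up 67.6% of all genes in CD44- cells and 57.7% in CD44+ cells. OG was higher by 0.97 ± 0.08 in CD44- cells, which is 1.96-fold (adjusted p = 1.3e-10), and by 0.84 ± 0.08 in CD44+ cells (adjusted p = 3.39e-09). The CD44 difference was -0.05 ± 0.08 in OG (adjusted p = 0.611) and 0.08 ± 0.09 in R26 (adjusted p = 0.501), and their difference -0.13 ± 0.12 (adjusted p = 0.45). The microRNA gene Mir7678 overlaps the GENCODE M21 span of Slpi on the same strand. That span starts 32588 bases upstream of the RefSeq start, and overlap with the RefSeq interval was not checked.

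**Figure D4:**
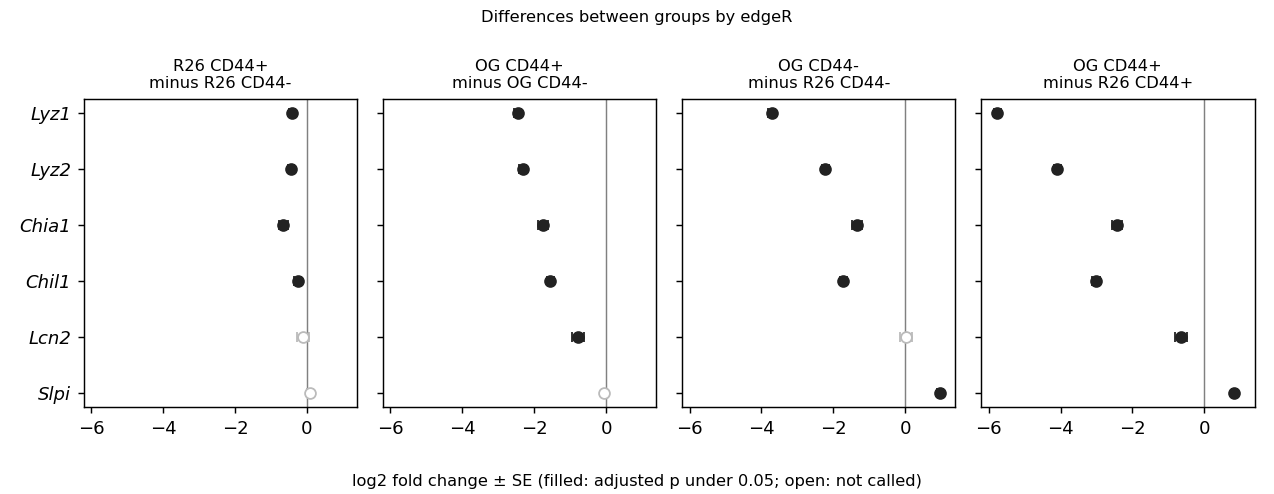
Log2 fold changes (horizontal axis) of the 6 genes with their SE in the 4 comparisons, by edgeR; filled points passed an adjusted p under 0.05 and open points did not. Lyz1 reaches -5.76 in OG CD44+ against R26 CD44+, and Slpi is the only gene to the right of 0 among the filled points.

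Per kilobase of exon, the scale on which genes can be set against each other, Lyz2 led in all 4 groups, from 19093 ± 1588 CPM per kb (SD, n = 4) in R26 CD44- to 821 ± 21.2 in OG CD44+. Lyz1 and Chil1 followed in R26, at 1969 ± 52.2 and 1817 ± 180.2 in CD44- and at 1477 ± 195 and 1519 ± 242 in CD44+, and these neighbours did not differ beyond their spread. Lcn2 came next (253 ± 52.1 in R26 CD44-), then Chia1 (182 ± 20.1) and Slpi (20.2 ± 1.94). In OG CD44- the order after Lyz2 was Chil1 (551 ± 31.8), Lcn2 (258 ± 13.7), Lyz1 (149.7 ± 14.9), Chia1 (71.8 ± 6.04) and Slpi (39.4 ± 2.56). In OG CD44+ Lyz1, at 27.2 ± 1.87, stood below Slpi, at 38.0 ± 3.52, and above Chia1, at 21.3 ± 1.97. Exons were joined over all annotated transcripts, which include retained introns for Chil1 and Lcn2 and so lower their values. The GENCODE span of Slpi is also longer than the RefSeq one, and what this does to its value was not tested.

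**Figure D5:**
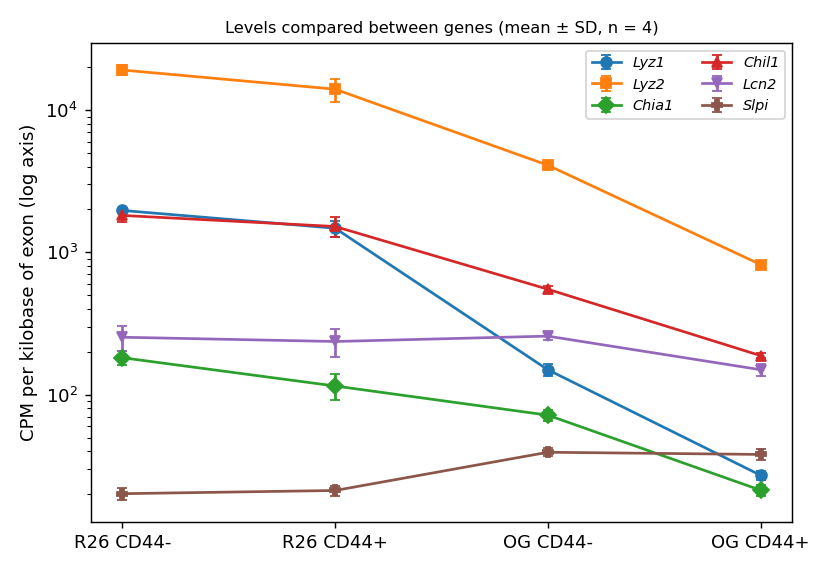
Mean level of each gene in CPM per kilobase of exon (log axis) in the 4 groups, with the SD over 4 libraries; lines only join the points of a gene. Lyz1 goes from the second place in R26 CD44-, at 1969, to the fifth in OG CD44+, at 27.2, where Slpi, at 38.0, lies above it.

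Other secreted antimicrobial genes moved both ways. Of 38 listed, 17 were tested. In OG, 8 rose and 6 fell from CD44- to CD44+ (median 0.56), and in R26, 7 rose and 7 fell (median 0.52). Between prefixes, 4 were higher and 8 lower in OG CD44- cells (median -0.49) and 5 higher and 7 lower in CD44+ cells (median -0.15). The collectins Sftpa1 and Sftpd, which coat microbes for uptake, fell with CD44 in OG (log2 -1.56 ± 0.07, adjusted p = 8.01e-14, and -0.88 ± 0.06, adjusted p = 1.12e-11). Cxcl15, a lung chemokine, fell there too (-1.27 ± 0.06, adjusted p = 3.3e-13). Ang and Rnase4, ribonucleases of overlapping loci whose reads may be divided, also fell (-1.48 ± 0.11, adjusted p = 1.34e-10, and -1.08 ± 0.10, adjusted p = 1.74e-07).

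Sftpa1, Sftpd and Cxcl15 also stand on the AT2 marker list. Bpifb1, Reg3g and Ltf were among the genes that rose. Bpifb1, a secreted airway protein, went from 2.80 ± 0.542 CPM (SD, n = 4) in OG CD44- to 21.6 ± 2.73 in OG CD44+ (2.92 ± 0.14, adjusted p = 8.01e-14). Reg3g, a lectin that binds peptidoglycan, went from 0.856 ± 0.125 to 10.0 ± 1.31 CPM (3.53 ± 0.24, adjusted p = 3.95e-11), and Ltf, an iron-binding protein, from 2.70 ± 0.274 to 15.8 ± 2.45 CPM (2.55 ± 0.26, adjusted p = 1.75e-07). All 12 tested club and secretory cell markers also rose with CD44 in OG and 11 of 12 in R26. Bpifb1 and Reg3g stand on that marker list too, and Ltf on the neutrophil list.

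Protease inhibitors related to Slpi by function mostly rose. Of 13 tested of 20 listed, Slpi included, 9 rose and 1 fell with CD44 in OG (median 0.41), and 8 rose and 2 fell in R26 (median 1.23). In OG against R26, 9 were higher and 3 lower in CD44- cells (median 1.54), and 10 higher and 1 lower in CD44+ cells (median 0.77). Timp3, an inhibitor of metalloproteinases, went from 193 ± 11.1 CPM in R26 CD44- to 561 ± 14.8 in OG CD44- (1.54 ± 0.07, adjusted p = 2.06e-15). Spink5, an inhibitor of serine proteases, went the other way, from 50.7 ± 3.85 to 9.54 ± 0.705 CPM (-2.40 ± 0.10, adjusted p = 3.92e-16). Wfdc2, which shares the whey acidic protein fold with Slpi, was also lower (-0.49 ± 0.08, adjusted p = 2.34e-05).

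Among 5 tested lipocalins of 14 listed, 2 rose and 2 fell with CD44 in OG (median 0.66), and 2 rose and 1 fell in R26 (median 0.64). In OG against R26, 2 were higher and 0 lower in CD44- cells (median 0.31), and 1 was higher and 2 lower in CD44+ cells (median -0.29). Orm1, an acute-phase lipocalin, was higher in OG than in R26 by 3.18 ± 0.23 in CD44- cells (adjusted p = 1.06e-11), from 0.688 ± 0.256 to 6.45 ± 0.882 CPM.

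Genes that lie upstream of Lcn2 and Slpi in inflammatory signalling were tested as a list of 16. In OG, 5 rose and 6 fell with CD44 (median -0.04), and in R26, 3 rose and 3 fell (median -0.05). OG CD44- cells had 5 higher and 7 lower than R26 (median -0.15), and OG CD44+ cells 2 higher and 7 lower (median -0.20). Nfkbiz, the NF-kappaB cofactor needed for Lcn2 induction in other cells, was at 222 ± 17.4 CPM in R26 CD44- and 31.3 ± 0.952 in OG CD44- (-2.83 ± 0.18, adjusted p = 6.74e-09). Cebpd, a C/EBP factor, was at 311 ± 26.4 and 73.2 ± 8.03 CPM (-2.09 ± 0.10, adjusted p = 2.67e-12). Il1r1 and Stat3 were also lower in OG (-1.34 ± 0.06, adjusted p = 4.19e-15, and -0.61 ± 0.04, adjusted p = 2.01e-12). Tlr2, a receptor for bacterial lipoproteins, was higher in OG, by 2.72 ± 0.16 (adjusted p = 1.25e-13). Cebpb, another C/EBP factor, moved against Cebpd, from 40.2 ± 3.42 CPM in R26 CD44- to 63.6 ± 5.76 in OG CD44- (0.66 ± 0.08, adjusted p = 8.84e-08). Lcn2 itself was not called in that comparison. From CD44- to CD44+ in OG, where Lcn2 fell, Nfkbiz rose by 1.20 ± 0.18 in log2 (adjusted p = 9.57e-05).

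Of 6 genes of interleukin 4 and 13 signalling, which induces chitinases, 2 rose and 2 fell with CD44 in OG (median 0.03) and 2 rose and 0 fell in R26 (median 0.03). In OG against R26, 2 were higher and 2 lower in CD44- cells (median 0.26), and 2 higher and 3 lower in CD44+ cells (median -0.40). Il4ra, the shared receptor chain, went from 72.2 ± 2.58 CPM in R26 CD44- to 209.8 ± 12.8 in OG CD44- (1.54 ± 0.06, adjusted p = 1.21e-16), while Stat6, its transcription factor, was lower (-0.70 ± 0.05, adjusted p = 4.99e-12).

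Receptors and binding partners of the 6 products were tested for 8 of 10 genes. One of the 8 is Cd44, the antigen of the sort itself, whose rise in both prefixes is counted here. How far its RNA follows the sort was not tested. In OG 4 rose and 3 fell with CD44 (median 0.12), and in R26, 3 rose and 1 fell (median 0.01). OG CD44- cells had 4 higher and 2 lower than R26 (median 0.20), and OG CD44+ cells 4 higher and 4 lower (median 0.07). Lgals3, galectin-3, which binds Chil1, went from 55.1 ± 3.07 CPM in R26 CD44- to 669 ± 39.4 in OG CD44- (3.60 ± 0.06, adjusted p = 2.99e-23). Slc22a17, a receptor for Lcn2, was lower in OG (-1.43 ± 0.09, adjusted p = 4.31e-13). Lrp2, megalin, which takes up Lcn2 and lysozyme, fell with CD44 in OG (-0.70 ± 0.06, adjusted p = 1.71e-09) and was at 0.04 ± 0.06 in R26 (adjusted p = 0.631). Il13ra2, a receptor for Chil1, did not pass the filter on low counts.

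Other cells that make these proteins were followed by marker lists. The 22 macrophage and monocyte markers summed to 45.6 to 54.6 CPM in R26 CD44-, 83.0 to 124 in R26 CD44+, 92.2 to 98.8 in OG CD44- and 79.5 to 106 in OG CD44+. Of the 19 tested, 14 were higher and 2 lower in OG CD44- than in R26 CD44- cells. Marco, Siglecf, Fcgr1 and Tyrobp were at 0 in all 4 libraries of R26 CD44-, and Marco also in R26 CD44+. The 13 neutrophil markers summed to 1.91 to 3.41, 3.96 to 11.2, 4.34 to 4.70 and 20.1 to 26.7 CPM in the same order of groups, with 6, 4, 1 and 1 of the 13 at 0, among them Mpo in the first 3 groups and Elane in OG CD44+. Ltf made up a large part of these neutrophil sums, at means of 2.02, 5.98, 2.70 and 15.8 CPM in the same order of groups. Of the 3 neutrophil markers tested, 2 rose with CD44 in OG and 1 in R26.

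The 13 club and secretory cell markers summed to 567 to 1194, 1843 to 3338, 645 to 767 and 1882 to 2592 CPM, with none at 0. The 10 ciliated cell markers summed to 119 to 137, 169 to 301, 194 to 199 and 380.4 to 495 CPM, also with none at 0, and 10 of 10 rose with CD44 in OG and 8 of 10 in R26. All 16 AT2 markers fell with CD44 in OG (median -0.75) and 15 of 16 in R26 (median -0.54). Against R26, 15 of 16 were lower in OG CD44- cells (median -0.94) and 16 of 16 in OG CD44+ cells (median -1.08). From CD44- to CD44+ in OG, where 5 of the 6 genes fell, the AT2 list fell and the club and ciliated lists rose. In OG CD44- against R26 CD44- cells, where the lysozymes and chitinases were lower and Lcn2 was not called, the AT2 list was lower, 8 of 10 ciliated markers were higher, and 0 of 12 club markers were higher and 2 lower. The part of these lists in the results was not tested.

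Over the 16 libraries, the genes most like each of the 6 in log2 CPM, among 7234 compared, were found by Pearson's r. They were Car8, Man1a and Epas1 for Lyz1 (r = 0.998 each) and Acoxl, Mme and Anpep for Lyz2 (r = 0.999, 0.998 and 0.998). They were St6galnac4, Soat1 and Slco4c1 for Chia1 (0.995, 0.994 and 0.993), and Hc, Lyz2 and Epas1 for Chil1 (0.997, 0.994 and 0.993). Lcn2 had lower values, with Slc6a20a (0.932), Arid1a (0.913) and Clpb (0.907), and Slpi had Ago2 (0.983), Psma2 (0.982) and Prdx6b (0.982). These r describe 16 libraries from 8 animals in 4 groups, and the steps between groups make up most of the range.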

How the data were processed

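RNA was sequenced from 16 libraries of sorted AT2 cells. The deposited table holds unnormalised counts, whole numbers for each gene and library, and per the submitters' processing notes Bowtie2 and mm10 were used. The counting program, annotation, strand setting and read length are not given in the sources used here. Libraries were made with a stranded total RNA kit and ribosomal RNA removal, per the labels' protocols. All 16 columns were used, and 25275 of 27179 identifiers (93.0%) matched a symbol.

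Sorts come from the column names, and the prefixes stand for genotypes only by inference. Each lung gave both sorts, so the animal's number pairs them. Paired libraries deviated from their group means with r of 0.126 to 0.24 in R26 and 0.0199 to 0.0967 in OG.

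Counts were tested with edgeR 4.0.16 in R 4.3.3 (filterByExpr, TMM scaling, robust quasi-likelihood F test, 1 mean per group over all 16 libraries) and Benjamini-Hochberg adjustment over 15516 genes, at 0.05. The SE is the log2 fold change divided by the square root of F. CPM use the library sizes and TMM factors of the fit. In the smallest library, 3 counts are 0.333 CPM. DESeq2 1.42.0 and other alternatives are reported in the closing section.

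The 6 genes and the lists were chosen with earlier results of these data known. From each list, up to 4 called genes with the smallest adjusted p, genes against the majority and relatives or receptors could be named. The 3 genes most like each of the 6 were taken from named genes with a mean log2 CPM of at least 4. Gene positions, the distance between the lysozyme genes and promoter windows are from RefSeq (GRCm38). Strands, exon lengths, overlapping genes and transcript sequences are from GENCODE M21.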

Additional observations from a re-analysis of the deposited data

Results flagged for a closer look

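Lyz2 in the CD44+ library of R26 animal 2, at 23629 CPM, lay far from the other 3 libraries of its group, with a gap of 0.917 of the group's range. The sum of Lyz1 and Lyz2 did so in the same library, at 25777 CPM and 0.905 of the range. Both exceed Dixon's 95% critical value for 4 libraries, which chance exceeds in about 1 in 20 groups, and 28 groups were examined.

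The CD44 difference of 4 genes differed between OG and R26 animals by a test of the difference itself, edgeR's quasi-likelihood F test and Benjamini-Hochberg adjustment. Of all genes, 24.7% were called by this test, 18.1% lower and 6.57% higher. OG minus R26 was -2.04 in log2 for Lyz1 (adjusted p = 1.94e-10), -1.87 for Lyz2 (adjusted p = 9.42e-10), -1.29 for Chil1 (adjusted p = 4.72e-07) and -1.09 for Chia1 (adjusted p = 0.000758). The sum of Lyz1 and Lyz2 gave -1.88 (adjusted p = 4.66e-10), and -1.62 without the CD44+ library of R26 animal 2. Lcn2 passed only in some settings, with the animal as a replicate block among them (-0.68, adjusted p = 3.11e-13, against 0.0511 without the block). For Lyz1, Lyz2, Chia1, Chil1 and Lcn2, every one of the 4 OG animals had a larger fall than every one of the 4 R26 animals. The share of all genes that separate the animals in this way was not counted, so this is a description only.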

How the results depend on the processing

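The 35 results (6 genes and the summed lysozymes in 5 comparisons) were refitted with DESeq2 size factors or its Wald test, unfiltered, and with a filter of 50 counts in 4 libraries. Each library of a comparison was also left out. The comparisons of sorts and the difference of differences were refitted with a replicate block for the animal. OG against R26 was not, as each animal belongs to a single prefix. All but the difference of differences were also fitted on only the libraries compared. Of 525 such fits, 517 kept their side of the threshold, 3 lost a call, 5 gained one and 0 reversed a called direction. Among the 517 were 16 fits of Lcn2 and Slpi in which a value that was not called changed sign. Chil1 in R26 lost its call with no filter (-0.25, adjusted p = 0.0824), at least 50 counts (-0.22, adjusted p = 0.0632) and only the libraries compared (-0.23, adjusted p = 0.145); the cause was not tested. The Lcn2 difference of differences gained a call with the DESeq2 Wald test (-0.62, adjusted p = 0.0337), at least 50 counts (-0.67, adjusted p = 0.047), the replicate block (-0.68, adjusted p = 3.11e-13) and without the CD44+ library of R26 animal 8 (-0.68, adjusted p = 0.0323). With single libraries left out it ran from -0.73 to -0.47. The replicate block also gave a call to Lcn2 in R26 (-0.11, adjusted p = 0.028) and changed no other call in the comparisons fitted with it. Leaving out the CD44+ library of R26 animal 2 moved the R26 difference of Lyz2 from -0.45 to -0.67 and of Chil1 from -0.26 to -0.41, and changed no call. Leaving out the CD44- library of R26 animal 8 moved these differences to -0.53 and -0.40. The all-gene median between the sorts of R26 itself moved by -0.06 to -0.08 when any single R26 library was left out. The all-gene median moved by -0.11 in OG CD44- against R26 CD44- when any single CD44- library of R26 was left out. In the difference of differences it moved by 0.12 when any single R26 library was left out. With DESeq2 size factors these medians moved by -0.07 and 0.06. The share of higher genes among those called ran, over all these settings, from 22.4% to 53.5% in the difference of differences and from 42.4% to 66.2% for the sorts of R26. When any single R26 library was left out, these shares were 51% to 53.5% and 42.4% to 45.2%, against 26.6% and 58.4% in the main fit. Counting error is small for these genes, the fewest counts being 207 for Slpi.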
